A study of Mus musculus with 2 samples.

Results

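The miR-30 family comprises 6 Mir30 genes of the mouse that lie in pairs at 3 loci, Mir30a with Mir30c-2 on chromosome 1, Mir30b with Mir30d on chromosome 15, and Mir30c-1 with Mir30e on chromosome 4. The members were taken by gene name, not by any measured value, and they are 6 of the 1973 gene identifiers in the count tables. All 6 had at least 10 counts in both libraries, as did 294 identifiers in all, which are called detected here. The libraries were made from small RNA (under 30 nucleotides, per the labels) of whole thymus of the mouse strain B6NCrl on postnatal day 0, with 1 library for each of 2 pups of 1 litter. Replicate 1 came from pup 2 and replicate 2 from pup 3, and both pups carry the same donor identifier in the labels. No treatment or genotype is given, and both libraries form 1 group. The data therefore give levels and the spread between 2 littermate libraries, in which pup, dissection and library preparation cannot be told apart. In whole tissue, fewer cells of a type and less RNA per cell cannot be told apart either.

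A miRNA guides Argonaute proteins to messenger RNAs, mainly through its seed, the bases near its 5′ end. Members of the miR-30 family carry the same seed on the 5p arm of their hairpins. The family is known for restraining the transition of epithelial cells to mesenchyme through Snai1, for limiting the Notch ligand Dll4 in endothelium, and for targeting Prdm1, a transcription factor of lymphocyte differentiation. Thymus holds epithelial, endothelial and lymphoid cells, and the reads do not show which of them supplied a member.

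Mature sequences for 4 of the 6 members (Mir30a, Mir30c-1, Mir30c-2 and Mir30e) were matched in RefSeq's miRNA table (GRCm38.p6). The 5p arms are shown because all of them share bases 2 to 8, printed in capitals:
miR-30a-5p: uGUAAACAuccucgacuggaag
miR-30e-5p: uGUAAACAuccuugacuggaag
miR-30c-5p, from both Mir30c-1 and Mir30c-2: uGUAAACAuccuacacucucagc

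The 5p arms were identical over their first 12 bases. Counted from 1 at the 5′ end, miR-30a-5p and miR-30e-5p differed by 1 substitution, C13U. The arms miR-30a-5p and miR-30c-5p differed by 5 substitutions, C13A, G14C, G18C, G19U and A20C. Of 1738 mature entries in the table, 5 carry the seed GUAAACA (0.288%): those of the 4 matched members and that of Mir384 on the X chromosome. Mir30b and Mir30d have no entry there and are missing from this number. Mir384 had 2 counts in replicate 1 and 0 in replicate 2, so among the genes matched to this seed almost all counts fell on Mir30 genes. These counts are per gene, with both arms together, so reads carrying the seed itself were not counted.

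The 3p arms split the matched members into pairs that cross the loci. They are shown with bases 2 to 8 in capitals:
miR-30a-3p: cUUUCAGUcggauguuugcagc
miR-30e-3p: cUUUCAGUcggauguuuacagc
miR-30c-2-3p: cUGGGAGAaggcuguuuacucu
miR-30c-1-3p: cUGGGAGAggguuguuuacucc

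Mir30a and Mir30e shared the 3p seed UUUCAGU, and their 3p arms differed by G18A. No other mature entry in the table carries that seed, but the table has no entry for Mir30b or Mir30d. Mir30c-2 and Mir30c-1 shared UGGGAGA, also present in Mir6958, and differed by A9G, C12U and U22C. The table of counts has 1 value per gene, so the 5p and 3p arms cannot be separated in what follows.

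The Mir30c hairpins are printed whole because the stretch they share, in capitals, bears on how their reads could be counted:
Mir30c-2: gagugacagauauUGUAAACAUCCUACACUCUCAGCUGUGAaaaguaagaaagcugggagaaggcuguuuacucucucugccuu
Mir30c-1: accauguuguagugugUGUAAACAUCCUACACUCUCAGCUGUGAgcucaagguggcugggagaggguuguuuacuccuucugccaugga

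The shared stretch was 28 bases and covered the whole 23-base miR-30c-5p. A read within it has 2 places of origin in the genome. The deposited tables tallied reads with several places apart from genes, and these made up 56.3% of all reads in replicate 1 and 57.5% in replicate 2. The longest stretch between Mir30a and Mir30e was 18 bases, shorter than their 22-base mature arms. Counts of Mir30c-1 and Mir30c-2 are uncertain for this reason, and the part of uncounted reads in their low values was not tested.

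Depth differed between the libraries. Counts assigned to the strand of a miRNA gene were 2734133 in replicate 1 and 1289151 in replicate 2, and levels are given in counts per 1000000 of these (CPM). Opposite-strand reads are left out of CPM, shares and ranks. Those opposite to Mir142b numbered 387318 in replicate 1 and 178605 in replicate 2, more than the gene-strand counts of any gene. A gene at 0 counts may have had up to 3, or 1.10 CPM in replicate 1 and 2.33 CPM in replicate 2. This limit and all intervals cover counting error only, since no molecular identifiers are described. The tissue label was checked against markers: Mir181a-1, abundant in thymocytes, had 36631 CPM ± 832, Mir205, of thymic epithelium, had 9875 ± 749, and the endothelial Mir126a had 32673 ± 6540 (SD, n = 2). Striated muscle markers were detected too, Mir206 with 445 CPM in replicate 1 and 442 in replicate 2, Mir208b with 21.9 and 185, and Mir499 with 11.7 and 34.1. The others of that list, Mir1a-1 and Mir133a-1, were at 0 in both libraries, but each also has a copy at another locus, so this sets no limit on the mature miRNA.

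Together the 6 members took 5.95% of assigned counts in replicate 1 (95% Wilson interval 5.924 to 5.981) and 5.44% in replicate 2 (5.406 to 5.484). Levels were led by 1 gene, Mir30e. Mir30e had 3370 times the counts of Mir30c-2 in replicate 1 and 3498 times in replicate 2. Reads within the stretch shared by the Mir30c genes were tallied apart, so this ratio and the family's share cover counted reads only. Without Mir30e, the family's share was 1.39% and 1.38%. The share lost with it was thus most of the total in both libraries.

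**Figure D1:**
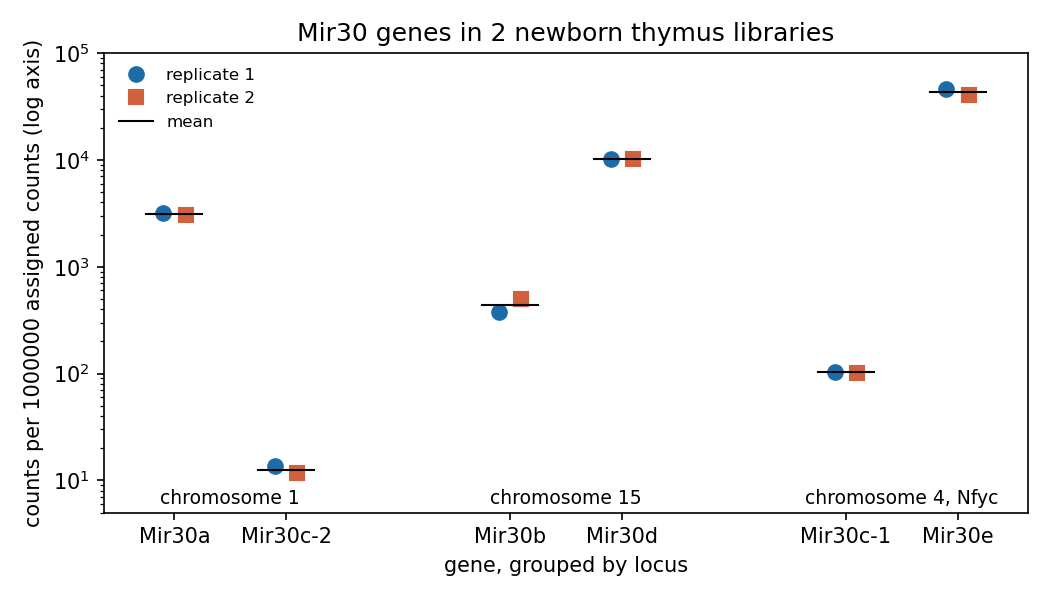
Level of each Mir30 gene in counts per 1000000 assigned counts (CPM, vertical log axis), grouped by locus on the horizontal axis, with 1 circle for replicate 1, 1 square for replicate 2 and a line at their mean. Mir30e lies highest at 45600 and 40696 and Mir30c-2 lowest at 13.5 and 11.6, and each locus pairs a high with a low gene.

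The locus on chromosome 4 held most of the family's counts, 76.8% in replicate 1 and 74.9% in replicate 2. Mir30e (ENSMUSG00000065409.1, chromosome 4, 120772606 to 120772697, minus strand, GRCm38) lies in an intron of Nfyc on the same strand. Nfyc encodes a subunit of NF-Y, the factor that binds CCAAT boxes. Mir30e had 124676 counts in replicate 1 and 52463 in replicate 2, or 45600 and 40696 CPM. By gene-strand counts it stood at place 4 and place 5 among detected genes in the respective libraries. Its partner Mir30c-1 (ENSMUSG00000065490.1, 120769534 to 120769622) lies 2983 bases away, also in an intron of Nfyc. Mir30c-1 had 284 and 131 counts, or 103.9 and 101.6 CPM, so the libraries barely differed. Mir30e thus exceeded Mir30c-1 by 439 times in replicate 1 and 401 times in replicate 2.

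GENCODE M21 also places Mir30f on the opposite strand of Mir30e, over the same bases. Mir30f was not among the identifiers of the tables. Reads opposite to Mir30e were 0 in both libraries, which allows up to 1.10 CPM in replicate 1 and 2.33 in replicate 2. The same held for all 6 members and for 272 of the 294 detected genes.

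The locus on chromosome 15 held 17.8% and 19.5% of the family's counts. Mir30d (ENSMUSG00000065437.1, chromosome 15, 68341208 to 68341289, minus strand) lies within an exon of the long noncoding RNA Gm20732 on the same strand. Mir30d had 28016 and 13025 counts, or 10247 and 10104 CPM, nearly the same level in both libraries. Its partner Mir30b (ENSMUSG00000065476.2, 68337415 to 68337510), 3697 bases away, overlaps an exon of the transcript Gm26621 by 16 bases. Mir30b had 1031 and 642 counts, or 377 and 498 CPM. Here the libraries differed more, with the higher level in replicate 2. Mir30d exceeded Mir30b by 27.2 times in replicate 1 and 20.3 times in replicate 2.

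The locus on chromosome 1 held 5.37% and 5.60% of the family's counts. Mir30a (ENSMUSG00000065405.2, chromosome 1, 23272269 to 23272339, plus strand) overlaps no other annotated gene. Mir30a had 8701 and 3914 counts, or 3182 and 3036 CPM. Mir30c-2 (ENSMUSG00000065567.1, 23291701 to 23291784), 19361 bases away, lies in an exon of the long noncoding RNA Gm27028. It had 37 and 15 counts, or 13.5 and 11.6 CPM, and only 24 detected genes had a lower mean level. Mir30a exceeded Mir30c-2 by 235 times in replicate 1 and 261 times in replicate 2.

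In CPM the order of levels was Mir30e, Mir30d, Mir30a, Mir30b, Mir30c-1 and Mir30c-2, and it was the same in both libraries. Every step between neighbours in this order was larger than the spread between the libraries. The gap was smallest against that spread between Mir30b and Mir30c-1, at 3.92 times the larger SD, and next between Mir30e and Mir30d, at 9.51 times. As ratios of counts, Mir30e exceeded Mir30d by 4.24 ± 0.299 times, Mir30d exceeded Mir30a by 3.27 ± 0.0763, Mir30a exceeded Mir30b by 7.27 ± 1.66, Mir30b exceeded Mir30c-1 by 4.27 ± 0.898 and Mir30c-1 exceeded Mir30c-2 by 8.21 ± 0.748 (SD, n = 2). Levels were also divided by the length of the annotated gene (71 bases for Mir30a to 96 for Mir30b). The order did not change, and with steps this large it could not have changed. On that scale Mir30e had 49565 and 44235 CPM per 100 bases and Mir30c-2 had 16.1 and 13.9. Per length, the 5 steps were 3.78, 2.83, 9.83, 3.95 and 7.74 times.

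**Figure D2:**
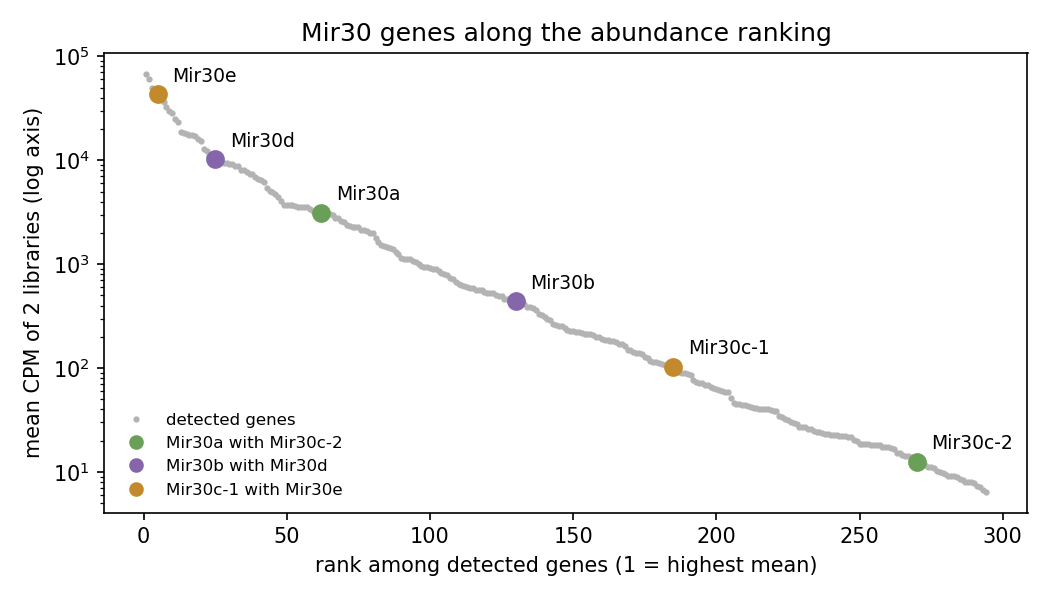
Mean CPM of both libraries (vertical log axis) against rank among the 294 detected genes (horizontal axis, rank 1 highest), with grey points for all genes and coloured points for the Mir30 genes by locus. Mir30e stands at rank 5, Mir30d at 25, Mir30a at 62, Mir30b at 130, Mir30c-1 at 185 and Mir30c-2 at 270.

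The members were spread along the whole ranking of detected genes, whose median level was 239 CPM, with 4 members above it and 2 below. For each member, the gene outside the family with the nearest levels over the 2 libraries was found by distance in log2(CPM + 1). Next to Mir30e was Mir17, known from a cluster that promotes proliferation of lymphocytes (47713 and 44198 CPM, distance 0.136). Next to Mir30d was Mir18, of the same cluster (9623 and 9755 CPM, distance 0.104). Next to Mir30a was Mir342, a miRNA of lymphocytes (3272 and 3064 CPM, distance 0.0423). Mir350 was nearest to Mir30b (distance 0.0357), Mir204 to Mir30c-1 (0.115) and Mir493 to Mir30c-2 (0.189). With 2 libraries such a distance describes alike levels and nothing more.

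Unequal counts within a locus were compared with those of other neighbouring miRNA genes. This comparison was chosen after the values were seen. Pairs of successive detected genes on 1 strand at most 20 kilobases apart numbered 106, and the higher gene exceeded the lower by a median of 5.89 times in mean CPM. Only 2 pairs were more unequal than Mir30c-1 with Mir30e (420 times), and 5 were more unequal than Mir30a with Mir30c-2 (247 times). For Mir30b with Mir30d (23.3 times) there were 30. Both of the most unequal loci contain a Mir30c gene, whose 5p arm is encoded at both places. Of the 269 detected genes matched to RefSeq, 36 carry a mature sequence that another gene also carries, and their median was 127 CPM, against 312 CPM in the other 233. The 36 include both Mir30c genes and ranged up to 36631 CPM, and the other 233 up to 67816 CPM. The part of shared sequences in these levels was not tested.

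**Figure D3:**
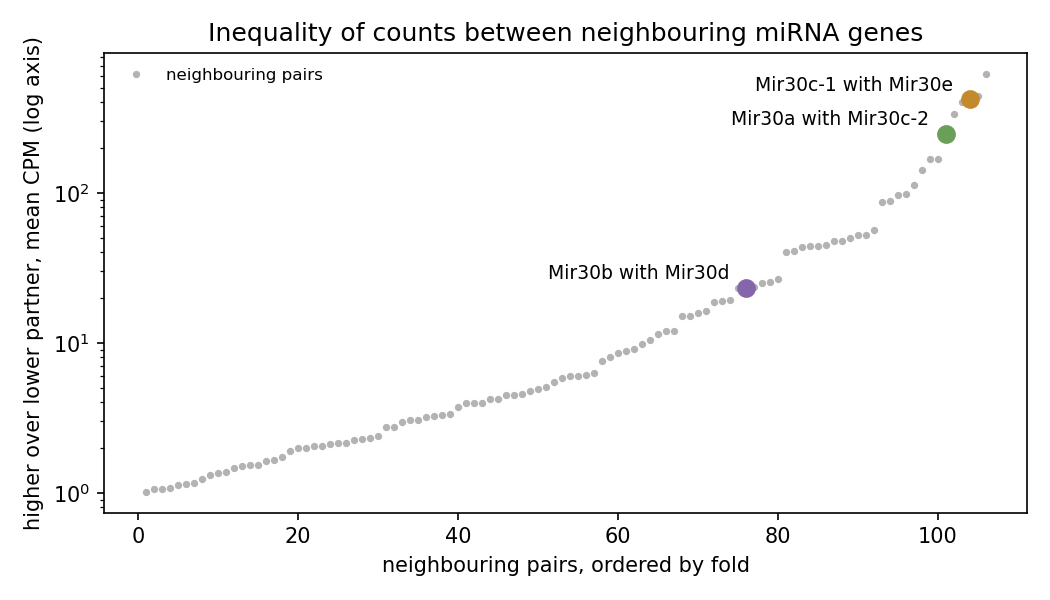
Fold between the higher and the lower gene of each of 106 neighbouring pairs (vertical log axis, mean CPM), ordered from the most equal to the most unequal pair (horizontal axis), with the 3 Mir30 loci in colour. Mir30c-1 with Mir30e (420) and Mir30a with Mir30c-2 (247) lie near the upper end, and Mir30b with Mir30d (23.3) above the median of 5.89.

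Other families encoded at several loci were also led by 1 gene. Mir30e took 76.6% of the miR-30 counts in replicate 1 and 74.7% in replicate 2. The leading share was higher in the miR-29 family (96.1% and 96.3%) and the miR-26 genes (99.85% and 99.86%), and lower in the miR-181 family (59.2% and 62.8%). The miR-30 share therefore lay between these, and the libraries did not overlap between families. No test was run between families. Reads with several places of origin were left out in every family, as for the Mir30c genes. The leading shares and family totals thus cover counted reads only, and the part of uncounted reads in them was not tested. Of assigned counts, the miR-30 family's 5.70% ± 0.359 was close to the 6.02% ± 0.389 of miR-181 and the 6.01% ± 0.806 of miR-26, with differences within the SD, and far above the 0.341% ± 0.0228 of miR-29.

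Between the libraries, 1 member was higher in replicate 2 and 3 were lower. The two-sided exact binomial test of counts, given TMM effective library sizes and with Benjamini-Hochberg adjustment over all 294 detected genes, compares these libraries by counting error and not conditions. It called 4 of the 6 members, beside 43.5% of all genes tested. Of all genes tested it called 20.1% higher in replicate 2 and 23.5% lower, and with 6 members no excess over these shares is read. Ratios are those of replicate 2 to replicate 1. Mir30b was higher by 0.33 on the log2 scale (0.19 to 0.48 as the exact 95% interval, with an adjusted exact p of 1.65e-05). Mir30e was lower, with a log2 ratio of -0.23 (-0.25 to -0.22, with an adjusted exact p of 9.26e-210). Mir30a was lower by a log2 ratio of -0.13 (-0.19 to -0.080), and Mir30d by -0.09 (-0.12 to -0.06). Mir30c-1 had a log2 ratio of -0.10 (-0.41 to 0.21) and Mir30c-2 of -0.28 (-1.26 to 0.62), and neither passed.

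Markers of other cell types also differed between these libraries. Higher in replicate 2, as Mir30b was, were the endothelial Mir126a (2.81% of assigned counts in replicate 1 and 3.73% in replicate 2) and the smooth muscle and mesenchyme list (4.57% and 6.06%), in which 2 of 4 genes were called higher and 0 lower. The striated muscle list had 0.0479% and 0.0661%, with 2 of 3 tested genes called higher. Among these, Mir143 had a log2 ratio of 0.35, Mir126a of 0.34 and Mir208b of 3.01. The thymocyte and lymphocyte list had 4.61% and 4.47%, with 1 of 4 genes called higher and 3 lower. Erythroid markers had 0.0231% and 0.0168%, with 1 of 2 called lower, and the myeloid Mir223 had 0.0919% and 0.0787% and was called lower. Beside these calls, the exact binomial test called 43.5% of all genes tested, 20.1% higher in replicate 2 and 23.5% lower. With lists this short, no excess over these shares is read. The part of these cell types in the differences of the Mir30 genes was not tested.

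The median absolute log2 ratio was 0.18 over the members and 0.21 over the 294 genes, with 88 genes above Mir30b in absolute ratio, 112 above Mir30c-2 and 136 above Mir30e. The signed median was -0.12 over the members and -0.03 over all genes tested. Scaled to total assigned counts, the log2 ratio of Mir30d was -0.02 and no longer passed (adjusted exact binomial p = 0.297), while the other 3 calls stood. A negative binomial test in edgeR, which adds a spread of 0.154 (biological coefficient of variation) estimated from the same libraries, called 0 members, with 0 at an unadjusted p under 0.05. It called 0.340% of all genes tested, which is 1 gene, Mir208b.

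**Figure D4:**
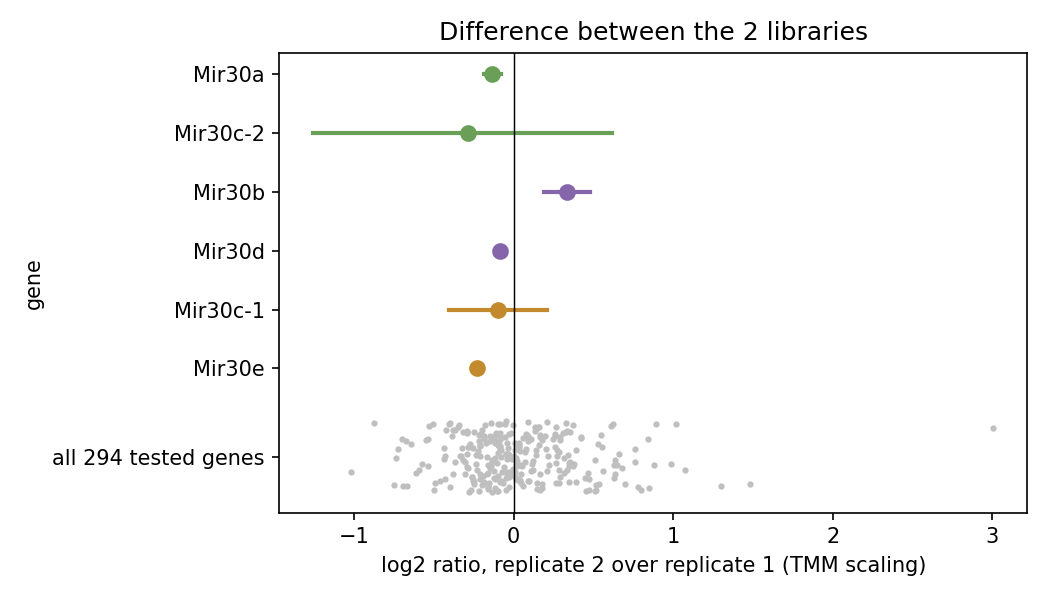
Log2 ratio of replicate 2 over replicate 1 after TMM scaling (horizontal axis) for each Mir30 gene, as a point with its exact 95% interval, above all 294 tested genes as grey points spread vertically for visibility. Mir30b lies right of 0 at 0.33, Mir30e left of it at -0.23, and the intervals of Mir30c-1 and Mir30c-2 cross 0.

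The balance within each locus was compared between libraries without any scaling, by a two-sided Fisher's exact test of the partners' counts, adjusted over the 3 loci. It compares these libraries by counting error only. The share of all neighbouring pairs that would pass it was not computed, so no excess is read. Of the 3 loci, that on chromosome 15 passed. Mir30b made up 3.55% of that locus in replicate 1 (95% Wilson interval 3.343 to 3.768) and 4.70% in replicate 2 (4.355 to 5.065), an odds ratio of 1.34 (1.21 to 1.48, adjusted Fisher's exact p = 5.66e-08). Mir30c-1 made up 0.227% and 0.249% of its locus, an odds ratio of 1.10 (0.891 to 1.35, adjusted Fisher's exact p = 0.584). Mir30c-2 made up 0.423% and 0.382%, an odds ratio of 0.901 (0.494 to 1.64, adjusted Fisher's exact p = 0.881). The intervals at these loci include the odds ratio found at chromosome 15, and whether the loci differ from each other was not tested. Among the 106 neighbouring pairs, 34 had log2 ratios farther apart than the 0.42 between Mir30b and Mir30d.

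Other miRNAs that restrain the transition of epithelium to mesenchyme (Mir200a, Mir200b, Mir200c, Mir141, Mir429 and Mir205) took 3.66% ± 0.0863 of assigned counts, less than the miR-30 family by more than the SD of either. These 6 genes also serve as the list of epithelial markers, with 3.60% of assigned counts in replicate 1 and 3.72% in replicate 2. Of these 6, 3 were higher in replicate 2, 1 was lower and 2 did not pass the exact binomial test, beside 43.5% called over all genes tested, 20.1% higher and 23.5% lower. Their median log2 ratio was 0.07, beside -0.03 over all genes tested. Mir205 was the most abundant, and its 9875 CPM ± 749 differed from the 10175 ± 101 of Mir30d by less than its SD.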

How the data were processed

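Small RNA of 2 newborn thymus libraries was analysed from the deposited raw counts per miRNA gene, 1 table per library, whose build (mm10) and annotation (M4) the authors name in text files deposited beside them. The sources used here name neither aligner nor counter. Of 3 count columns, that of the gene strand was used, as judged from the values. The others hold the opposite strand and the sum of both. Rows for unmapped (10.6% and 9.17%), multimapping (56.3% and 57.5%) and unassigned reads (2.99% and 2.57%) and for ambiguous reads stayed out of library sizes.

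Symbols, GRCm38 coordinates and overlaps came from GENCODE M21, which matched 1894 of 1973 identifiers. Mir30a has a later version there, so its boundaries at counting may differ. Library sizes were scaled by TMM with edgeR 4.0.16 under R 4.3.3, and tests used scipy 1.17.1 (Python 3.11.15) at an adjusted p of 0.05. The members and lists were chosen with earlier results of these data known. Named genes are the 6 members, the gene nearest to each in log2(CPM + 1), and genes that share a seed or a position with a member. Mir142b is named for its opposite-strand reads. Of the marker lists, those of epithelium and striated muscle are named in full, and of the others at most the most abundant gene. Alternatives were unstranded counts, DESeq2 1.42.0 size factors, total assigned counts, filters of 1 count in either library or 100 in both, a negative binomial test, other denominators, levels per gene length, leaving out the Mir30c genes, and each library alone.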

Additional observations from a re-analysis of the deposited data

How the results depend on the processing

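The order of the 6 members did not change per gene length, and could not have, since the lengths differ little against the steps between members. The family's share of 5.70% became 4.87% of unstranded counts and 1.48% of all reads. It became 6.12% without the gene of most gene-strand counts in the denominator, and ran from 5.44% to 5.95% with each library alone. The level of Mir30e became 36898 CPM with unstranded counts, 11220 per 1000000 of all reads and 46900 CPM per 100 bases, and ran from 40696 to 45600 with each library alone. Shares of the loci moved by less than the SD without the Mir30c genes. Mir30c-1 held a mean of 0.181% and Mir30c-2 of 0.022% of the family's counts, so leaving them out could hardly move the shares. This does not cover Mir30c reads that were left uncounted. Unstranded counts leave shares within the family as they are, since no member has opposite-strand counts, and with 2 libraries leaving out 1 is no check of stability. The number of members called was 4 with DESeq2 size factors and under both other filters, 3 with total assigned counts and 0 with the negative binomial test. Over all genes tested, 43.5% were called in the main setting and 0.340% by the negative binomial test. The shares under the other settings are not given here, so no excess of members is read from them. The members' median log2 ratio of -0.12 became -0.050 with total assigned counts and -0.065 with at least 100 counts in both libraries, which leaves Mir30c-2 out. Depth limits Mir30c-2 most, with 37 and 15 counts. No paired analysis was possible because both libraries form 1 group.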
